A study of Mus musculus with 12 samples.

Results

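The p53 family and its target genes were followed in 12 mouse libraries as 10 genes, matched by symbol and Entrez ID. They belong to the 31675 genes with a listed count in every library, whether or not the gene was detected there. The 10 genes comprise the 3 family genes Trp53, Trp63 and Trp73 and 7 target genes, Mdm2, Ccng1, Zmat3, Phlda3, Sesn2, Eda2r and Aen. They were chosen by name and not by a measured value, though with earlier results of these data known. The libraries form 6 groups of 2. E16, E17 and P7 are testis germ cells of embryonic days 16 and 17 and postnatal day 7, all carrying the Vasa-RFPTg/0 transgene genotype. Stag3 KO1, Stag3 KO2 and WT are germline stem cells (GSCs), cultured spermatogonial stem cells, all of the line labelled Acrosin-EGFP; beta-Actin-EGFP (AAG). KO1 and KO2 carry a knockout of Stag3, which encodes a germ cell subunit of cohesin, the ring complex that holds and folds chromosomes. The labels used here do not state how the knockouts were made, whether each is 1 clone, how germ cells were isolated, or whether replicates were separate cultures or animals. Every p-value therefore reflects the spread between libraries, and that spread may be technical.

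The p53 protein is a transcription factor that is kept low by MDM2, a ubiquitin ligase whose own gene p53 activates. DNA damage and other stresses release p53 from MDM2, and p53 then raises genes for cell cycle arrest, repair and apoptosis. Its relatives p63 and p73 bind similar sites. In the germline p63 is best known for removing damaged oocytes, and in spermatogonia p53 is known for eliminating damaged cells.

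RNA ends were counted per gene (SC3-seq, which reads the 3′ ends of messages), and levels are given as RPM, counts per 1000000 non-mitochondrial gene counts of the same library. Total counts per library were 1938644 to 4596607, so that 3 counts, used here as the floor, equal 0.748 to 1.05 RPM in GSCs, 1.06 to 1.73 RPM in E16 and E17 cells and 0.927 to 0.987 RPM in P7 cells. RPM does not correct for gene length. Single levels are not compared between genes, and sums and shares over several genes describe counts only. Stag3 had 294.6 and 304.4 RPM in KO1, 137.4 and 152.3 RPM in KO2, and 384.7 and 420.4 RPM in WT GSCs, and a 3′ end count need not report a deletion elsewhere in the gene. All 5 germ cell markers (Ddx4, Dazl, Mael, Dnd1, Tex101) were detected in every group, with sums of 2472 to 3505 RPM. ERCC spike-in RNAs took 0.194% to 1.52% of counts in E16 and E17 libraries, 4.69% to 5.85% in P7 libraries and 2.80% to 3.41% in GSC libraries, and the P7 tables use another gene list, so stage and gene list cannot be told apart at P7. Scaling by these spike-ins moved the median log2 change of all genes by 3.02 for E17 against E16, -4.68 for P7 against E17, 4.14 for E17 against WT GSCs and -0.55 for P7 against WT GSCs. Changes below are therefore relative to the bulk of messages in each library (TMM scaling), and amounts per cell were not measured.

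The sequences around the starts of the genes that carry the results are shown first. RefSeq windows on GRCm38.p6, 250 bases before to 50 bases after the start, were found for 8 of the 10 genes, not for Trp63 and Zmat3. Trp53, Mdm2 and Ccng1 are printed because each holds a p53 consensus decamer (the motif p53 binds as a tandem pair), in capitals, and both Trp73 starts are printed because 3′ counts cannot tell their messages apart. The Trp53 window is chr11:69580109-69580408 on the plus strand, and the others are on the minus strand, at chr10:117710709-117711008 for Mdm2, chr11:40755237-40755536 for Ccng1, chr4:154139826-154140125 for the upstream start of Trp73 and chr4:154097124-154097423 for its internal start.
Trp53: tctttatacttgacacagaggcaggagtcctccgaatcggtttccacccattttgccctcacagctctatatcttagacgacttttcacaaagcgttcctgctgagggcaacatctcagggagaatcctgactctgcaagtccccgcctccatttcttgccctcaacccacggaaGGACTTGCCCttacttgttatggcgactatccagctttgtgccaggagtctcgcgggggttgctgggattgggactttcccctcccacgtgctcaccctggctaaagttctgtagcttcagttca
Mdm2: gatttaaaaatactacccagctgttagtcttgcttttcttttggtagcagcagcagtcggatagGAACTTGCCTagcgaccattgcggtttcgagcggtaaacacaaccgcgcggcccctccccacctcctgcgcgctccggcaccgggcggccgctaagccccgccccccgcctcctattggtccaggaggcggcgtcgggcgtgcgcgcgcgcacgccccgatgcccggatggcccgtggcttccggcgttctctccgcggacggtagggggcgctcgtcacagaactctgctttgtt
Ccng1: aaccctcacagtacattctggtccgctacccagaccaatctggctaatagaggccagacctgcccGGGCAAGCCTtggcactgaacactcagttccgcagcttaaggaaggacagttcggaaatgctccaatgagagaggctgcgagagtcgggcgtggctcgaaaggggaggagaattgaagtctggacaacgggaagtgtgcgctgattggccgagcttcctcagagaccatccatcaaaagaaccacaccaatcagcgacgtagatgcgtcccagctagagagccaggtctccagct
Trp73 upstream start: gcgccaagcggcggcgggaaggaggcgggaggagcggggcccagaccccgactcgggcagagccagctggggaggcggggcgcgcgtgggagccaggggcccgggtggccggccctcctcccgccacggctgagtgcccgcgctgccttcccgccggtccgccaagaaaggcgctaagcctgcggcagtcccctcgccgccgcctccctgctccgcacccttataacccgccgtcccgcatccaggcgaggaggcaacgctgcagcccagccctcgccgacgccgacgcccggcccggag
Trp73 internal start: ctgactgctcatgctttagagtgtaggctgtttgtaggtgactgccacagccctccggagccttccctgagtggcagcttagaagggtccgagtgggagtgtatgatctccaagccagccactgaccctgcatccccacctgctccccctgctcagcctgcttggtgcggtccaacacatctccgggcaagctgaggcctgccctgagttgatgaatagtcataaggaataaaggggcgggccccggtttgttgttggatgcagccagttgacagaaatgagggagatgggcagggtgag

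The decamer was searched on both strands by its consensus, which reads the same on each. It was found in 5 of the 10 windows, belonging to Trp53, Mdm2, Ccng1 and Aen, and 8.36% of all 32851 promoter windows hold it. Both windows of Aen count here, but they overlap and hold the same single site. Counted from the start on which each window is set, the printed matches begin at base -75 for Trp53, -186 for Mdm2 and -185 for Ccng1. For Trp53 and Ccng1 that start is not the outer end of the annotated gene. A tandem pair with a spacer of 0 to 13 bases was found in none of the members' windows and in 0.0731% of all windows. The p53-responsive promoter of Mdm2 is known to lie in its first intron, outside this window.

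Trp53, the gene of p53 itself, was low in fetal germ cells and high in P7 germ cells and GSCs. It lies on chr11 at 69580348 to 69591873 (GRCm38.p6) and overlaps no other annotated gene. Trp53 had 5.47 and 7.04 RPM at E16, 1.16 and 3.14 RPM at E17, and 53.3 and 60.0 RPM at P7. In GSCs Trp53 had 76.8 and 93.2 RPM in KO1, 97.5 and 87.7 RPM in KO2, and 60.2 and 71.0 RPM in WT. All P7 and GSC libraries lay above all fetal ones, and both knockout lines lay above WT. The E17 values rest on only 2 and 6 counts. From summed counts, Trp53 was 25.8 times as high at P7 as at E17, with a 95% counting interval of 12.96 to 60.3. It was 30.0 times lower at E17 than in WT GSCs (interval 15.1 to 69.8), and 10.3 times lower at E16 than in WT GSCs (7.17 to 15.3). These intervals cover counting error only. In edgeR's quasi-likelihood test with Benjamini-Hochberg adjustment over all genes, Trp53 was higher at P7 than at E17 by 4.81 ± 0.40 on the log2 scale (SE, adjusted p = 1.14e-07) and lower at E17 than in WT GSCs (log2 change -5.18 ± 0.33, adjusted p = 4.49e-16). Leaving out E17 replicate 2 moved these values to 5.73 and -6.09, both still called. With spike-in scaling the P7 to E17 difference became 0.20, with an adjusted p of 0.773, while the E17 to WT difference became -1.08, with an adjusted p of 0.0490.

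Trp63 and Trp73, the genes of p63 and p73, had the opposite pattern to Trp53 across stages. Trp63 had 24.4 and 21.8 RPM at E16, 27.2 and 20.4 RPM at E17, and 1.64 and 0.31 RPM at P7. In GSCs Trp63 was at 0 in all 4 knockout libraries, and at 0.54 and 0 RPM in WT. Trp73 had 9.44 and 9.15 RPM at E16, 16.2 and 13.1 RPM at E17, and 0.33 and 0.31 RPM at P7. In GSCs Trp73 had 0.29 and 0 RPM in KO1, 0 and 1.11 RPM in KO2, and 0 in both WT libraries. Outside the 4 fetal libraries only Trp63 in P7 replicate 1 (5 counts) and Trp73 in KO2 replicate 2 (4 counts) exceeded 3 counts. Per summed counts Trp63 was 24.7 times lower at P7 than at E17 (95% counting interval 10.9 to 69.2) and Trp73 was 45.7 times lower (12.04 to 387). The edgeR log2 changes for P7 against E17 were -4.40 ± 0.53 for Trp63 (adjusted p = 4.49e-06) and -5.15 ± 0.69 for Trp73 (adjusted p = 1.23e-05), and spike-in scaling left both lower. For Trp63 this value was -5.84 without P7 replicate 1 and -3.64 without P7 replicate 2, still called. Against WT GSCs, Trp63 at E17 was 90.8 times as high by summed counts (interval 24.4 to 761), and Trp73 at E17 was at least 18.6-fold higher, taking 3 counts in each WT library as the floor. The fitted log2 change of Trp63 there was 8.89 without WT replicate 1 and 5.003 without WT replicate 2, called in both. Trp63 overlaps the annotated gene Gm24928 and Trp73 overlaps Gm26036, and the labels do not say whether counting used strand.

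**Figure D1:**
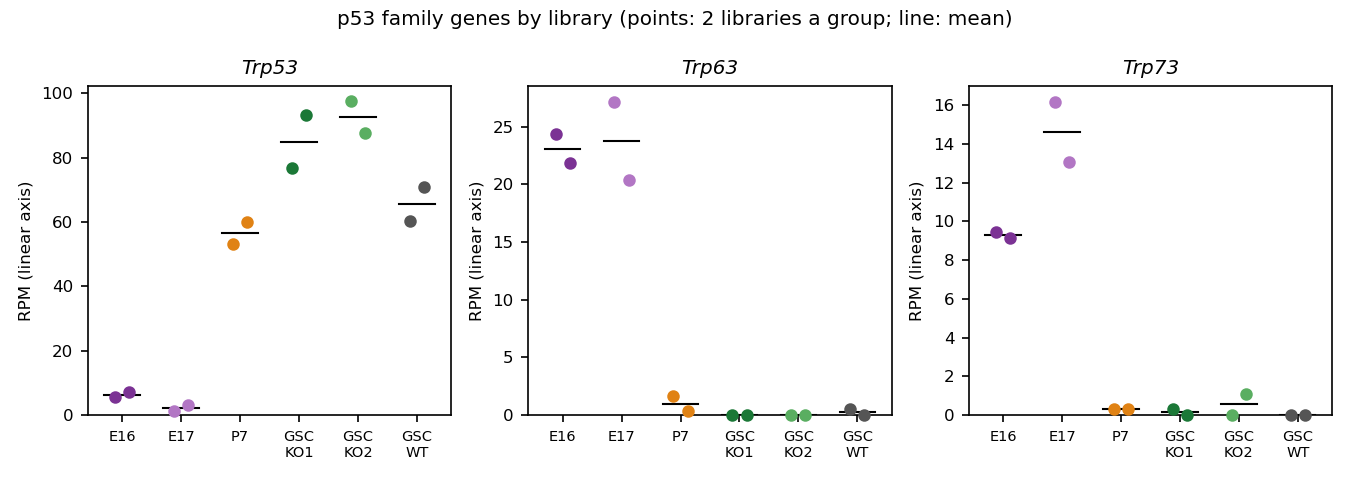
RPM of Trp53, Trp63 and Trp73 in each library (linear axes), with 2 points a group and a line at the mean, for E16, E17 and P7 germ cells and for KO1, KO2 and WT GSCs. Trp53 lies between 53.3 and 97.5 RPM in P7 cells and GSCs and at no more than 7.04 RPM in fetal cells, while Trp63 and Trp73 are above the floor mainly in the fetal libraries.

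Summed over the 3 genes, family counts were made up differently by stage. Trp53 gave 13.9% and 18.5% of family counts at E16, 2.60% and 8.57% at E17, and 96.4% and 99.0% at P7. In GSCs it gave 98.8% or more in every library. The summed family level was 36.6 to 44.5 RPM in the 4 fetal libraries, 55.2 and 60.6 RPM at P7, and 60.7 to 97.5 RPM in GSCs. Summed markers of some other testis cells were higher in the fetal libraries. Summed markers of peritubular cells (4 genes) were 80.3 to 90.4 RPM at E16, 98.8 to 107.8 RPM at E17 and 11.5 to 21.6 RPM at P7, against 3.33 to 12.7 RPM in GSCs. Fibroblast markers (6 genes) were 145.4 to 166.5 RPM at E16, 286.3 to 319.6 RPM at E17 and 107.5 to 129.5 RPM at P7, against 29.7 to 81.1 RPM in GSCs. Within that list Col1a1, a collagen gene, was highest at P7, averaging 12.9 RPM at E16, 32.5 RPM at E17 and 61.7 RPM at P7. Leydig cell markers (5 genes) summed to 27.3 to 37.2 RPM in fetal libraries, with Insl3 at 0, and 2.78 to 8.55 RPM at P7, with Cyp17a1 at 0 and no value for Insl3. Sertoli cell markers (9 matched genes) summed highest at E17, with Amh at 0 in every group. The sums were 404.4 to 431.8 RPM at E16, 486.7 to 534 RPM at E17 and 340 to 362.3 RPM at P7. In GSCs they were 366.8 to 441 RPM. Ctsl carried most of this sum, averaging 267 RPM at E16, 346 RPM at E17 and 336 RPM in WT GSCs. Clu, Gata4, Inha and Cst9 averaged higher at E16 and E17 than in every GSC group. Clu averaged 103 RPM at E16 and 90.3 RPM at E17, against at most 6.995 RPM in a GSC group. Sox9 and Aard lay within the range of GSC group means, and Wt1 below it at E16 and within it at E17. The part of these other testis cells in the stage differences was not tested, and fewer cells of a type cannot be told apart from less RNA per cell in bulk libraries.

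Mdm2, whose product ubiquitinates p53, was detected strongly everywhere and varied little beside Trp53. It had 249 and 173 RPM at E16, 284 and 288 RPM at E17, and 202 and 174 RPM at P7. In GSCs Mdm2 had 161 and 187 RPM in KO1, 151 and 154 RPM in KO2, and 167 and 163 RPM in WT. The E17 libraries were the highest, and the KO1 values spanned those of WT. By group mean Mdm2 was thus highest in the group where Trp53 was lowest, though neither gene was called in edgeR for E17 against E16. The log2 changes there were 0.11 ± 0.15 for Mdm2 (edgeR adjusted p = 0.700) and -1.85 ± 0.54 for Trp53 (0.0517). For Mdm2 the edgeR fit gave 0.49 ± 0.12 on the log2 scale for E17 against WT GSCs (adjusted p = 0.000734). It gave -0.45 ± 0.15 for P7 against E17 (adjusted p = 0.0133). The call for P7 was lost on leaving out E17 replicate 1 (adjusted p = 0.0746), E17 replicate 2 (0.0886) or P7 replicate 2 (0.154). In knockout GSCs as a mean of both lines the Mdm2 log2 change against WT was -0.07 ± 0.09 (adjusted p = 0.646).

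Ccng1 encodes cyclin G1, which binds protein phosphatase 2A and MDM2. It had 70.6 and 67.9 RPM at E16, 71.7 and 76.9 RPM at E17, and 60.2 and 55.6 RPM at P7. In GSCs Ccng1 had 100.3 and 97.4 RPM in KO1, 139 and 126 RPM in KO2, and 83.3 and 90.5 RPM in WT. Every GSC library was above every germ cell library taken from the testis, KO2 was above KO1, and both were above WT. Against WT GSCs the edgeR log2 change was -0.72 ± 0.15 at P7 (adjusted p = 0.000199) and -0.53 ± 0.15 at E17 (adjusted p = 0.00226). The E17 call was lost when library totals alone were used for scaling (-0.21, adjusted p = 0.209) or in DESeq2 (-0.33, adjusted p = 0.0586), and its sign turned with spike-in scaling (3.62).

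Zmat3 encodes an RNA-binding zinc finger protein and Phlda3 a pleckstrin homology protein that restrains Akt. Zmat3 had 7.45 and 12.3 RPM at E16, 12.7 and 15.7 RPM at E17, and 3.62 and 5.25 RPM at P7. In GSCs Zmat3 had 4.41 and 8.03 RPM in KO1, 4.86 and 10.8 RPM in KO2, and 2.72 and 2.24 RPM in WT. The 2 libraries of each knockout line differed more from each other than the WT libraries did, and all 4 were above WT. Phlda3 had 9.44 and 11.3 RPM at E16, 9.82 and 13.1 RPM at E17, and 1.64 and 1.85 RPM at P7. In GSCs Phlda3 had 5.30 and 5.24 RPM in KO1, 7.29 and 11.1 RPM in KO2, and 5.45 and 4.24 RPM in WT. Both genes were lower at P7 than at E17, Phlda3 with an edgeR log2 change of -2.52 ± 0.54 (adjusted p = 0.000827) and Zmat3 with -1.51 ± 0.47 (adjusted p = 0.0103). The Zmat3 call was lost without E17 replicate 2 (adjusted p = 0.0985) and without P7 replicate 1 (0.0816). Zmat3 was also higher at E17 than in WT GSCs (2.20 ± 0.52, adjusted p = 0.000347). In P7 cells Phlda3 was below its WT GSC level (-1.57 ± 0.56, adjusted p = 0.0301), a call lost without WT replicate 1 (0.152), P7 replicate 1 (0.133) or P7 replicate 2 (0.0950). Zmat3 overlaps the annotated gene 4930429B21Rik.

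Sesn2 encodes sestrin, a stress-induced restraint on mTOR signalling, and was highest at P7 in this series. The P7 tables alone use another gene list, so stage and gene list cannot be told apart for this difference. Sesn2 had 0.50 and 2.82 RPM at E16, 1.16 and 0.52 RPM at E17, and 15.8 and 19.5 RPM at P7. In GSCs Sesn2 had 0.59 and 0.70 RPM in KO1, 0.81 and 0 RPM in KO2, and 0 in both WT libraries. Only the P7 libraries and E16 replicate 2 exceeded the floor. By summed counts it was 21.5 times as high at P7 as at E17 (95% counting interval 7.16 to 105.7), and at least 22.7-fold higher at P7 than in WT GSCs with the floor of 3 counts per WT library. The edgeR log2 change for P7 against E17 was 4.48 ± 0.71 (adjusted p = 6.38e-05). It was 5.12 without E17 replicate 1, still called, and with spike-in scaling its sign turned (-0.10, adjusted p = 0.931).

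Eda2r, the gene of a TNF receptor family member for an ectodysplasin, had a higher level in every GSC library than in any testis germ cell library. It had 2.48 and 0.70 RPM at E16, 0.58 and 0.52 RPM at E17, and 1.32 and 2.47 RPM at P7. In GSCs Eda2r had 8.24 and 6.28 RPM in KO1, 9.99 and 5.83 RPM in KO2, and 3.81 and 3.99 RPM in WT. The lowest GSC library was at 3.81 RPM and the highest germ cell library at 2.48 RPM. The difference between P7 and WT GSCs was not called (log2 change -1.15 ± 0.64, edgeR adjusted p = 0.180). Eda2r was lower at E17 than in WT GSCs in the edgeR fit (-3.03 ± 0.92, adjusted p = 0.00413), with 2 counts in all at E17 and a summed-count interval of 1.80 to 61.4 around a 7.11-fold lower level. With spike-in scaling this sign turned (1.00). Eda2r overlaps the annotated gene Gm18111.

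Aen, which encodes an apoptosis-enhancing nuclease, had group means from 74.1 RPM at E17 to 101.7 RPM in KO2. It had 72.1 and 88.4 RPM at E16, 72.2 and 75.9 RPM at E17, and 84.8 and 87.5 RPM at P7. In GSCs Aen had 88.9 and 68.4 RPM in KO1, 101.5 and 101.8 RPM in KO2, and 99.1 and 77.7 RPM in WT. The replicates of KO1 and of WT each differed by nearly as much as the highest and lowest group means. The only call was for E17 against WT GSCs (log2 change -0.56 ± 0.17, edgeR adjusted p = 0.004), lost with DESeq2 size factors (-0.36, adjusted p = 0.0576), with library totals (-0.24, adjusted p = 0.200) and without WT replicate 1 (-0.39, adjusted p = 0.0882), and turned with spike-in scaling (3.60).

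**Figure D2:**
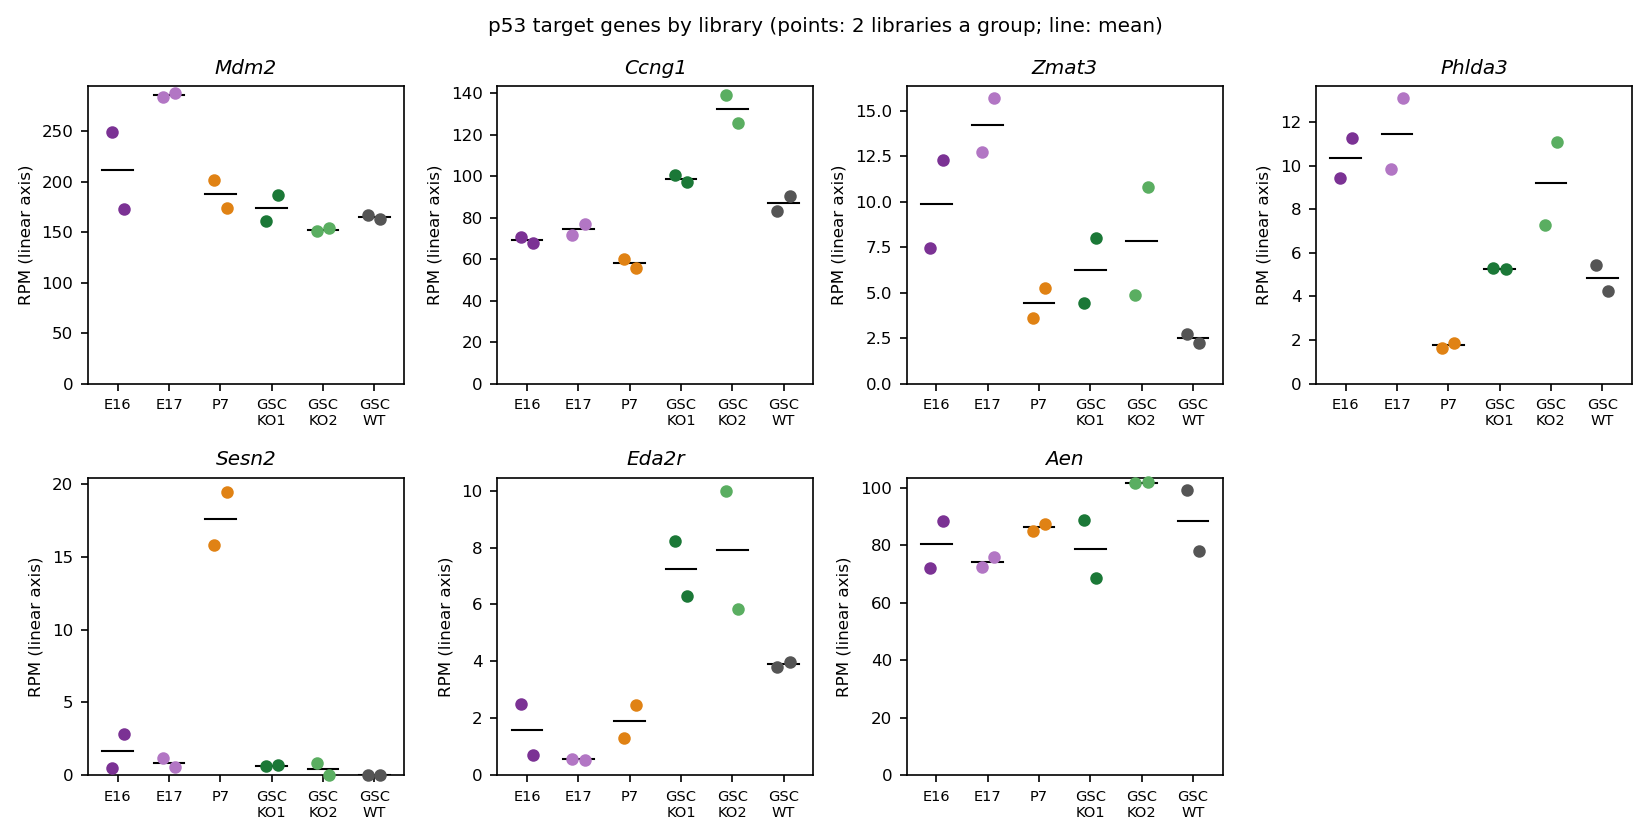
RPM of the 7 target genes in each library (linear axes, 1 panel a gene), with 2 points a group and a line at the mean, for E16, E17 and P7 germ cells and KO1, KO2 and WT GSCs. Sesn2 reaches 15.8 and 19.5 RPM at P7 and at most 2.82 RPM elsewhere, Ccng1 and Eda2r are highest in knockout GSCs, and Aen lies between 68.4 and 101.8 RPM in every library.

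The knockout comparison sets both Stag3 knockout lines against WT GSCs, and differences between lines cannot be told apart from loss of Stag3. Trp53, Ccng1 and Zmat3 were higher in knockout than in WT GSCs, by 0.38 ± 0.12, 0.35 ± 0.10 and 1.42 ± 0.46 on the log2 scale as a mean over both lines (edgeR adjusted p = 0.0140, 0.0106 and 0.0183). These are 3 of the 7 members with enough counts to be tested, and none was lower, where 19.2% of all 11890 genes tested were called, 8.64% higher and 10.6% lower. Scaled by library totals alone, 1291 of all genes were called higher and 1052 lower, against 1027 and 1259 with TMM. Eda2r (0.91 ± 0.39, edgeR adjusted p = 0.0893), Phlda3 (0.48 ± 0.38, 0.411), Mdm2 and Aen (-0.03 ± 0.11, 0.902) were not called, and Trp63, Trp73 and Sesn2 were too low to test. The median log2 change was 0.38 over the 7 tested members and 0.00 over all genes tested. The calls rested on single libraries and on the tool. Without WT replicate 1, KO1 replicate 2 or KO2 replicate 1 only 1 of the 3 was called, DESeq2 called none (adjusted p = 0.0936 for Trp53, 0.0665 for Ccng1 and 0.114 for Zmat3), nor did the edgeR fit of all 12 libraries, and spike-in scaling kept Zmat3 alone.

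By line, KO2 carried the calls. Against WT, KO2 was higher for Ccng1 (0.56 ± 0.12, edgeR adjusted p = 0.000191), Trp53 (0.45 ± 0.13, 0.0129) and Zmat3 (1.60 ± 0.50, 0.0176), where 15.6% of all genes were called, 7.19% higher and 8.45% lower. The Trp53 call was lost without WT replicate 1 (adjusted p = 0.105) or KO2 replicate 1 (0.229), and the Zmat3 call without WT replicate 2 (0.0830) or KO2 replicate 2 (0.91 on the log2 scale, 0.508). DESeq2 called only Ccng1 there. Against WT, KO1 gave no call in edgeR, with 2 members, Trp53 and Zmat3, at an unadjusted p under 0.05, and none in DESeq2. Of all genes 13.6% were called there at an adjusted p under 0.05, 6.24% higher and 7.40% lower. The share of all genes at an unadjusted p under 0.05 was not computed. Its log2 changes were 0.32 ± 0.14 for Trp53 (edgeR adjusted p = 0.114), 1.25 ± 0.53 for Zmat3 (0.102) and 0.14 ± 0.12 for Ccng1 (0.513). Both lines are set against the same 2 WT libraries. KO1 set directly against KO2 gave no member call in edgeR, with Ccng1 and Aen at an unadjusted p under 0.05, and none in DESeq2. Of all genes 0.833% were called there at an adjusted p under 0.05, 0.547% higher and 0.286% lower, and the unadjusted share was again not computed. Ccng1 came nearest (-0.42 ± 0.12, edgeR adjusted p = 0.0587), and passed the threshold with spike-in scaling (-0.59, adjusted p = 0.0331). Fibroblast and feeder markers summed to 38.1 to 42.1 RPM in KO1 and 29.7 to 34.3 RPM in KO2, against 76.8 to 81.1 RPM in WT. Undifferentiated spermatogonia markers (6 genes) summed to 826 to 897 RPM in KO1 and 822 to 850 RPM in KO2, against 1237 to 1265 RPM in WT. That sum is carried mainly by Uchl1, at 371 RPM in KO1 and 323 RPM in KO2, against 792 RPM in WT. Sall4, Zbtb16 and Id4 averaged lower in both knockout lines, while Etv5 averaged 170 RPM in KO1 and 194 RPM in KO2, against 57.2 RPM in WT, and Gfra1 was also higher. The part of either in these results was not tested.

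**Figure D3:**
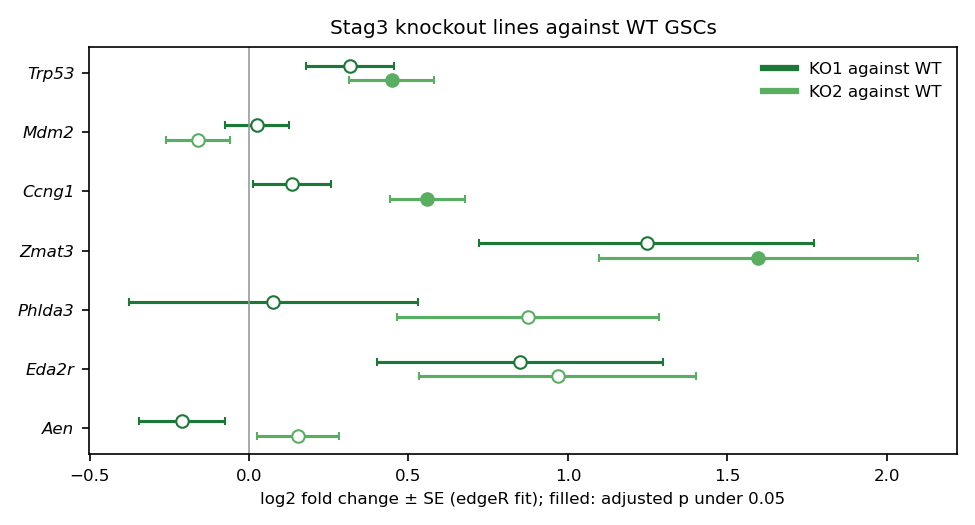
Log2 fold change ± SE from edgeR of the 7 tested genes in KO1 and KO2 GSCs, each against the same 2 WT libraries, with filled points where the adjusted p is under 0.05. Trp53, Ccng1 and Zmat3 are filled for KO2 and no gene is filled for KO1; the sign for Mdm2 and Phlda3 in KO1 turned with spike-in scaling.

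Across stages, P7 against E17 had 7 of 9 tested members past the threshold, 2 higher (Trp53 and Sesn2) and 5 lower (Trp63, Trp73, Phlda3, Zmat3 and Mdm2), where 67.9% of all 14776 genes were called, 30.2% higher and 37.8% lower. The share of members called was thus near that of all genes. Ccng1 (-0.20 ± 0.18, edgeR adjusted p = 0.314) and Aen (0.37 ± 0.18, 0.0780) were not called, and Eda2r was too low to test. With spike-in scaling, under which 37 of all genes were called higher and 14486 lower, none of the members stayed called higher and Aen turned lower (-4.31).

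E17 against E16 gave no member call among 9 tested in edgeR, and none in DESeq2. In edgeR 2 members had an unadjusted p under 0.05, and the share of all genes at that threshold was not computed. At an adjusted p under 0.05, edgeR called 6.60% of all genes, 1.64% (242) higher and 4.96% (733) lower. Scaled by library totals alone, 1332 of all genes were called higher and 243 lower, and with spike-in scaling 14506 and 2. Without E16 replicate 1 these counts were 1643 and 2002, without E16 replicate 2 they were 513 and 993, without E17 replicate 1 they were 28 and 204, and without E17 replicate 2 they were 34 and 226. Trp53 was nearest to the threshold (-1.85 ± 0.54, edgeR adjusted p = 0.0517), on 8 counts at E17 and 31 at E16. It passed with the fit of all 12 libraries (-1.86, adjusted p = 0.0143) and without E16 replicate 1 (-2.05, 0.00535), and turned with spike-in scaling (1.15). Aen (-0.46 ± 0.18, edgeR adjusted p = 0.148) passed without E16 replicate 1 (-0.65, 0.00307), so that 2 members were called without that library.

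E17 against WT GSCs had 8 of 10 members past the threshold, 4 higher (Trp63, Trp73, Mdm2, Zmat3) and 4 lower (Trp53, Ccng1, Eda2r, Aen), where 70.0% of all 15827 genes were called, 39.8% higher and 30.1% lower. Phlda3 (0.94 ± 0.45, edgeR adjusted p = 0.0638) and Sesn2, with 3 counts in all at E17 and none in WT, were not called. Both were called higher with DESeq2 size factors (1.14, adjusted p = 0.0261, and 4.30, 0.0499), with library totals (1.26, 0.0137, and 4.39, 0.0443) and with spike-in scaling, and DESeq2 called Phlda3 (1.14, 0.0477), as did the fit of these 4 libraries alone (0.96, 0.0352). The split of members was 6 higher and 3 lower with DESeq2 size factors, 6 and 2 with library totals, 8 and 1 with spike-in scaling, and 5 and 2 in DESeq2. Spike-in scaling called Ccng1 and Aen higher, gave Eda2r a positive sign without a call, and left Trp53 as the only member lower. P7 against WT GSCs had 3 of 10 past the threshold, Sesn2 higher and Ccng1 and Phlda3 lower, where 31.0% of all genes were called, 15.0% lower. With library totals 3230 of all genes were called higher and 1740 lower, and with spike-in scaling 909 and 4709, against 2538 and 2371 with TMM. Trp53 at P7 was close to WT GSCs (-0.34 ± 0.17, edgeR adjusted p = 0.136), as was Mdm2 (0.06 ± 0.12, 0.789), though with spike-in scaling Trp53 was called lower (-0.89, 0.00689) and Mdm2 took a negative sign (-0.50). The P7 and E17 comparisons share libraries with each other and with those against WT, so their values are given side by side only.

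**Figure D4:**
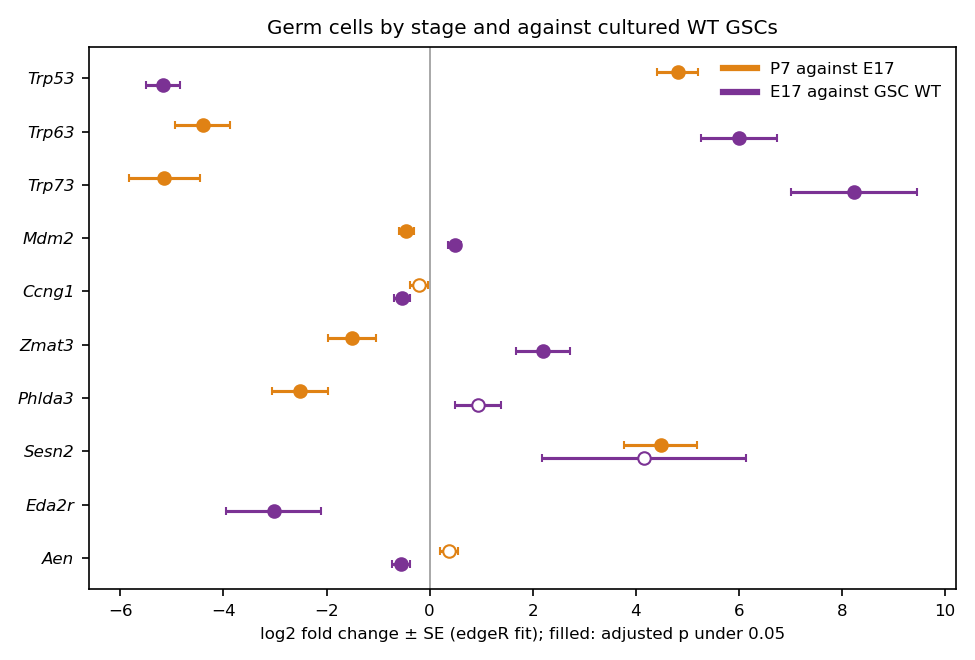
Log2 fold change ± SE from edgeR for P7 against E17 germ cells and for E17 germ cells against WT GSCs, which share the E17 libraries, with filled points where the adjusted p is under 0.05. Trp53 is at 4.81 and -5.18, opposite in sign to Trp63 and Trp73; the fitted values of Trp73 and Sesn2 against WT, where WT is at 0, depend on the prior count and are no bound, and signs of Sesn2 and Aen (P7 against E17) and of Ccng1, Eda2r and Aen (E17 against WT) turn with spike-in scaling.

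A wider list of 45 other p53 target genes put the members in context. In E17 cells against WT GSCs, 7 of its 36 tested genes were higher and 14 lower, where 70.0% of all genes were called, 39.8% higher and 30.1% lower. The median log2 change was -0.37 over the list and 0.23 over all genes. The lower ones included Cdkn1a, the p21 cell cycle inhibitor (-2.34 ± 0.38, edgeR adjusted p = 2.04e-06), Pmaip1, the BH3-only killer NOXA (-1.94 ± 0.29, 2.96e-07), Bax, an effector of mitochondrial apoptosis (-1.03 ± 0.21, 4.39e-05), and Ddit4, an mTOR inhibitor (-3.62 ± 0.35, 2.03e-11). The higher ones were led by Perp, a desmosome component also known as a p63 target in epithelium (6.09 ± 0.47, edgeR adjusted p = 9.73e-14), and by the death receptor gene Fas (3.15 ± 0.70, 0.000162) and Fdxr, which encodes ferredoxin reductase (2.96 ± 0.29, 4.16e-11). Perp averaged 31.0 ± 1.1 RPM at E16, 69.2 ± 8.4 RPM at E17 and 1.25 ± 1.30 RPM at P7, and 0.81 ± 0.79 RPM in WT GSCs (SD, n = 2 each). Cdkn1a averaged 6.58 ± 3.34 RPM at E16, 6.11 ± 1.98 RPM at E17 and 10.5 ± 5.2 RPM at P7, and 24.8 ± 8.9 RPM in WT GSCs (SD, n = 2 each). With spike-in scaling 35 of the 36 were called higher and none lower, and of all genes 15389 were called higher and 13 lower, so these directions hold only relative to the other messages.

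At P7 against E17, 11 of 35 tested genes of that list were higher and 7 lower, where 67.9% of all genes were called, 30.2% higher and 37.8% lower. The median log2 change was 0.54 over the list and -0.13 over all genes. Perp (-5.55 ± 0.41, edgeR adjusted p = 3.33e-08), Fas (-4.48 ± 0.80, 0.000169), Dram1, a lysosomal autophagy gene (-2.90 ± 0.61, 0.000713), and Fdxr (-2.40 ± 0.26, 1.55e-06) were lower. Gadd45a, a damage-induced gene of growth arrest (2.06 ± 0.37, edgeR adjusted p = 0.000191), Btg2, an antiproliferative gene (1.80 ± 0.28, 5.72e-05), and Pmaip1 (1.37 ± 0.41, 0.00759) were higher, while all 35 were lower with spike-in scaling. Cdkn1a (0.93 ± 0.54, edgeR adjusted p = 0.137) and Bax (0.09 ± 0.26, 0.777) were not called. E17 against E16, with 6.60% of all genes called, gave 1 call, Rps27l (-0.55 ± 0.16, edgeR adjusted p = 0.0486), lost with library totals (-0.21, 0.375), and with spike-in scaling all 35 were higher. At P7 against WT GSCs 2 of 36 were higher and 7 lower (31.0% of all genes were called), among them Cdkn1a (-1.39 ± 0.31, edgeR adjusted p = 0.000707) and Bax (-0.93 ± 0.19, 0.000263), and none was higher and 14 lower with spike-in scaling.

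**Figure D5:**
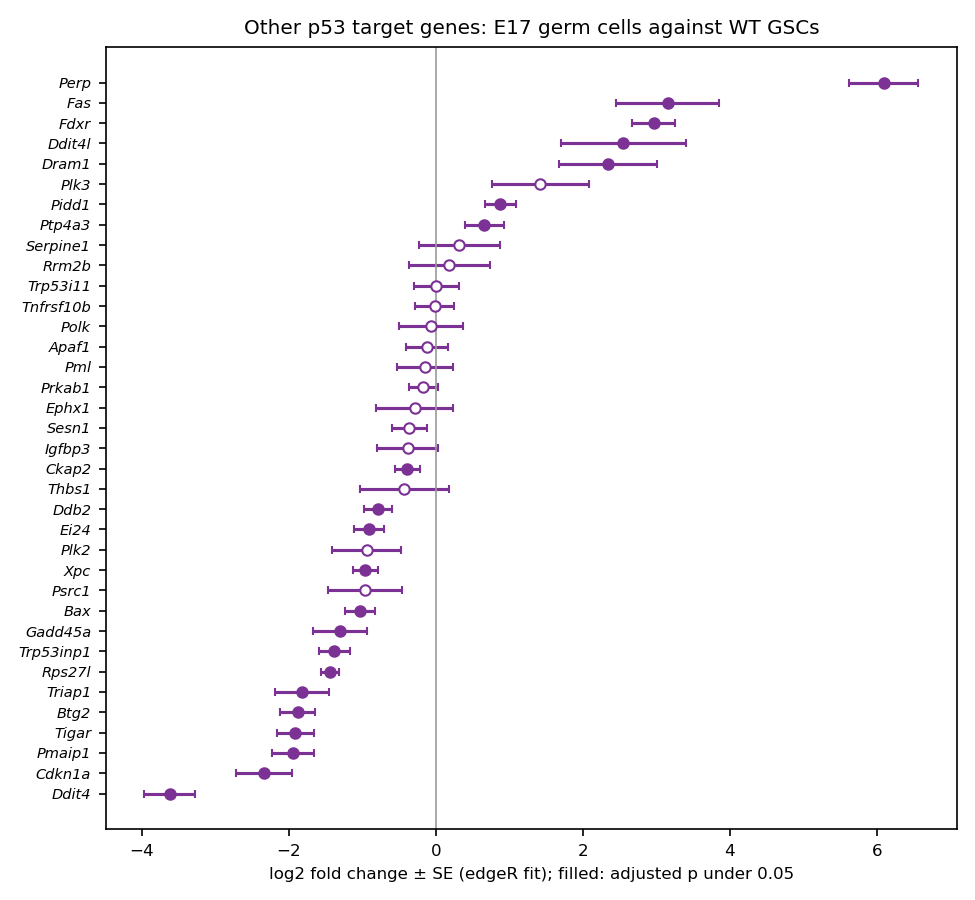
Log2 fold change ± SE from edgeR of the 36 tested genes among 45 other p53 target genes, E17 germ cells against WT GSCs, sorted by value, with filled points where the adjusted p is under 0.05. Perp lies at 6.09 and Ddit4 at -3.62, with 7 genes called higher and 14 lower; with spike-in scaling 35 are called higher and none lower.

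In knockout against WT GSCs, 3 of 31 tested genes of the list were higher and 3 lower, where 19.2% of all genes were called, 8.64% higher and 10.6% lower. The median log2 change was -0.07 over the list and 0.00 over all genes. Pmaip1 had 70.2 ± 10.3 RPM in KO1 and 64.7 ± 2.4 RPM in KO2, against 39.3 ± 0.9 RPM in WT (SD, n = 2 each). It was higher in knockout cells by 0.73 ± 0.14 on the log2 scale (edgeR adjusted p = 2.12e-05). Tnfrsf10b, a death receptor gene, had 33.6 ± 0.9 RPM in KO1 and 35.8 ± 4.0 RPM in KO2, against 19.9 ± 3.2 RPM in WT (SD, n = 2 each), and was higher by 0.74 ± 0.18 (edgeR adjusted p = 0.00109). The third, Rps27l, a ribosomal protein gene with the close paralog Rps27, was higher by 0.25 ± 0.07 (edgeR adjusted p = 0.00797). Ddit4 (-0.54 ± 0.15), Sesn1, a sestrin gene (-0.49 ± 0.17), and Xpc, a nucleotide excision repair gene (-0.36 ± 0.12), were lower in edgeR, and none of these 3 was called by DESeq2. Cdkn1a (0.28 ± 0.18, edgeR adjusted p = 0.281) and Bax (0.25 ± 0.13, 0.165) were not called, and Bbc3, the BH3-only killer PUMA, averaged at most 3.33 RPM in a group and was not tested.

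Of 30 regulators and partners of p53, 29 were tested. In E17 cells against WT GSCs 4 were higher and 13 lower, where 70.0% of all genes were called, 39.8% higher and 30.1% lower. The median log2 change was -0.35 over these regulators and 0.23 over all genes. Ppm1d, the phosphatase WIP1 that switches p53 signalling off, was higher (0.88 ± 0.14, edgeR adjusted p = 7.32e-07). Mdm4, which binds p53 with MDM2 (-0.88 ± 0.15, edgeR adjusted p = 4.85e-06), Atm, the kinase that signals double-strand breaks (-0.69 ± 0.16, 0.000347), and Wrap53, the head-to-head neighbour of Trp53 (-0.89 ± 0.21, 0.000323), were lower. At P7 against E17, 16 were higher and 4 lower, where 67.9% of all genes were called, 30.2% higher and 37.8% lower. Atm (1.43 ± 0.17, edgeR adjusted p = 3.41e-06) and Mdm4 (0.81 ± 0.17, 0.000692) were higher and Ppm1d lower (-0.95 ± 0.15, 7.70e-05). Chek2, a checkpoint kinase gene, was called in neither (0.25 ± 0.24, edgeR adjusted p = 0.362 for E17 against WT, and 0.12 ± 0.24, 0.671 for P7 against E17). With spike-in scaling all 29 were higher at E17 than in WT GSCs, and all 29 lower at P7 than at E17.

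In knockout against WT GSCs none of the 29 regulators was higher in edgeR and 5 were lower, where 19.2% of all genes were called, 8.64% higher and 10.6% lower. With library totals edgeR gave 1 higher and 3 lower. Ppm1d had 65.0 ± 1.6 RPM in KO1 and 73.2 ± 0.7 RPM in KO2, against 91.5 ± 2.2 RPM in WT (SD, n = 2 each), a log2 change of -0.46 ± 0.11 (edgeR adjusted p = 0.00168). Also among them were Ppp1r13l, the p53 inhibitor iASPP (-0.91 ± 0.26), Jmy, a p300 and actin cofactor (-0.55 ± 0.14), and Rpl5, a ribosomal protein gene whose product binds MDM2 (-0.16 ± 0.06). DESeq2 called 2 of the 29, both lower. At P7 against WT GSCs 8 were higher and 3 lower (31.0% of all genes were called), with Atm among the higher (0.76 ± 0.14, edgeR adjusted p = 8.60e-05). With spike-in scaling 1 was higher and 10 lower.

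The genes whose levels followed Trp53 most closely over the 6 groups were Usp26, Tbcc, Spc24, Pigm and Fbxl14. Likeness was measured as the root mean square distance between centred log2(RPM + 1) group means. It was ranked among 7363 genes averaging at least 20 RPM, leaving out symbols of the form Gm number or with Rik. The median distance over these genes was 1.80. The distances were 0.26 for Usp26, 0.27 for Tbcc, 0.29 for Spc24, 0.33 for Pigm and 0.34 for Fbxl14. Usp26, a germ cell deubiquitinase gene on the X chromosome, averaged 10.4 RPM at E16, 5.48 RPM at E17 and 66.7 RPM at P7, and 119 RPM in KO1, 125 RPM in KO2 and 84.9 RPM in WT GSCs. Spc24, a kinetochore gene, averaged 3.46 RPM at E16, 1.65 RPM at E17 and 39.0 RPM at P7, and 43.8 RPM in KO1, 41.5 RPM in KO2 and 37.1 RPM in WT GSCs.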

How the data were processed

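RNA was measured in 12 mouse libraries, 2 in each of 6 groups, grouped by the labels. Per the labels' protocols, 1 ng of RNA was reverse transcribed and amplified. The submitters' processing notes name Salmon 1.4.0, HTSeq 0.9.1, TopHat2 2.1.1 and cutadapt 1.18 and the build GRCm38.p6, without roles or a strand setting. The authors deposited 1 table per library without pooling, and the deposited read counts per gene were used for every value. For GSC WT the titles' replicate numbers were used, which are opposite to those of the file names. P7 genes were matched by Entrez ID.

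The members and lists were chosen with earlier results of these data known. All 10 members are described; from each list the text names up to 5 risers and 5 fallers past the threshold and a set of fixed genes. The values of 1 regulator are not reported here. Counts were tested with edgeR 4.0.16 in R 4.3.3 (filterByExpr, then TMM scaling and the quasi-likelihood test), with Benjamini-Hochberg adjustment over all genes tested and a threshold of 0.05. The 6 GSC libraries, the 6 in vivo libraries and all 12 (for comparisons with WT GSCs) were each fitted with 1 coefficient per group. DESeq2 1.42.0 and other scalings, filters and fits were alternatives. Ratios of summed counts carry exact 95% intervals for counting error only. No molecular identifiers are named, so amplified copies may count more than once and these intervals may be too narrow. Rows of spike-ins and transgenes and genes with blank cells stayed out of the tests. Log2 changes of 1 and 2 were simulated in 100 genes each, drawn only from the more abundant genes. Of these, edgeR recovered 99% and 100% for knockout against WT (11640 genes tested). For E17 against E16 it recovered 72% and 97% (13957 genes tested). Recovery of changes in low-count genes, such as several members, was not tested. The simulation gave each gene the spread typical of its abundance and changed no other genes, so recovery in the data may be lower.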

Additional observations from a re-analysis of the deposited data

Results flagged for a closer look

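The change of Rps27l in the Stag3 knockout lines, each against the same WT libraries, differed between the lines. KO1 minus KO2 was -0.31 on the log2 scale (edgeR adjusted p = 0.0352), with 366 ± 27 RPM in KO1 and 454 ± 8 RPM in KO2, against 333 ± 5 RPM in WT (SD, n = 2 each). DESeq2 gave an adjusted p of 0.181. None of the 7 members tested was called in this contrast, where 0.833% of all genes were, though Ccng1 passed with spike-in scaling (adjusted p = 0.0331) and with the replicate block (0.0248).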

How the results depend on the processing

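Of 66 member changes tested, 24 passed the threshold. Members called in knockout against WT GSCs (3) were 1 with spike-in scaling, 0 in DESeq2, 0 in the fit of all 12 libraries and 1 with a minimum log2 change of 1, and 1 to 3 on leaving out a library. KO2 against WT (3) gave 1 in DESeq2, 1 in the 12-library fit and 1 with the minimum change, and 2 on leaving out any library. KO1 against WT (0) gave 0 to 1 on leaving out a library, the 1 being Aen without WT replicate 2 (-0.41, adjusted p = 0.0335). KO1 against KO2 (0) gave 1 with spike-in scaling and 1 with a replicate block, Ccng1 in both. E17 against E16 (0) gave 7 with spike-in scaling, 1 without a low-count filter, 1 with a replicate block and 1 in the 12-library fit, and 0 to 2 on leaving out a library. P7 against WT (3) gave 5 with spike-in scaling, E17 against WT (8) gave 5 with the minimum change, and P7 against E17 (7) gave 5 to 6 on leaving out a library. The causes were not tested.

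Replicate numbers are not said to mark a shared batch. Same-numbered libraries deviated with correlations of -0.15 to 0.09. The most negative values, -0.15 and -0.14, were those of WT GSCs with E16 and with P7. The WT numbers are opposite in titles and file names, so these correlations cannot settle whether the numbers mark a batch. With the replicate block Ccng1 in KO1 against KO2 reached an adjusted p of 0.0248 and Trp53 in E17 against E16 0.0322; the block changed no other call of a member.

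Spike-in scaling reversed, in E17 against E16, Trp53 (1.15), Trp63 (2.74), Ccng1 (2.78), Phlda3 (2.83), Sesn2 (1.62) and Aen (2.58); in P7 against E17, Sesn2 (-0.10) and Aen (-4.31); in E17 against WT, Ccng1 (3.62), Eda2r (1.00) and Aen (3.60); in P7 against WT, Mdm2 (-0.50); and in KO1 against WT, Mdm2 (-0.079) and Phlda3 (-0.023). The 12-library fit reversed Mdm2 in KO1 against WT (-0.0059). Scaling by library totals alone, chosen after seeing the data, reversed Aen in knockout against WT (0.011) and, in E17 against E16, Trp63 (0.049), Ccng1 (0.11) and Phlda3 (0.15). Leaving out a library reversed uncalled changes only. Their ranges were -0.23 to 0.17 for Aen in knockout against WT, -0.081 to 0.13 for Mdm2 and -0.13 to 0.28 for Phlda3 in KO1 against WT, and -0.049 to 0.35 for Aen in KO2 against WT. In KO1 against KO2 they were -0.27 to 0.0022 for Trp53, -0.82 to 0.34 for Zmat3 and -0.45 to 0.33 for Eda2r. In E17 against E16 they were -0.075 to 0.33 for Mdm2, -0.18 to 0.66 for Zmat3, -0.42 to 0.010 for Phlda3 and -2.10 to 0.42 for Sesn2. In P7 against WT they were -0.073 to 0.13 for Mdm2 and -0.35 to 0.026 for Aen. With 2 libraries a group, the lone library left is assumed to vary like the others. Counts of 0 to 8 for Trp53, Trp63, Trp73, Sesn2 and Eda2r in their low groups limit what depth allows there.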
